A study of Mus musculus with 10 samples.

Results

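The 10 genes described here encode G protein alpha subunits (Gnai2, Gnai3, Gnaq, Gna13 and Gna15) and regulators of G protein signalling, or RGS proteins (Rgs1, Rgs2, Rgs3, Rgs18 and Rgs19). They were chosen by name, and each symbol matched 1 of the 35725 gene rows of the deposited count table. All 10 were among the 15586 genes that passed the filter on low counts and were tested. RNA came from eosinophils sorted by flow cytometry from the lungs of male mice, as 5 P2ry14-null libraries and 5 wild-type (WT) libraries of the strain C57BL/6J. The animals of both groups went through the same model of allergic asthma. They received ovalbumin (50 µg) with Aspergillus oryzae protease (20 µg) in the oropharynx on 2 occasions and, 7 days later, inhaled an aerosol of 1% ovalbumin. The cells were sorted 16 h after the aerosol, so all 10 libraries come from challenged lungs. The strain field of the P2ry14-null animals names only that genotype, and the sources used here give neither how the allele was made nor its background strain nor the animals' ages.

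P2ry14 is a cell surface receptor that binds UDP-sugars such as UDP-glucose and couples to the Gi class of G proteins. A receptor of this kind makes an alpha subunit exchange GDP for GTP, and the alpha subunit then separates from its beta-gamma partner. Alpha subunits of the Gi class inhibit adenylyl cyclase, those of the Gq class activate phospholipase C beta, and G13 activates exchange factors for the GTPase RhoA. RGS proteins speed up the hydrolysis of GTP by the alpha subunit and so end the signal. In leukocytes, Gi signalling through chemokine receptors drives migration. The comparison asked whether transcripts of these transducers and brakes differ in lung eosinophils that lack the receptor.

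The labels were checked on the targeted gene. P2ry14 ranged from 190.4 to 229 counts per 1000000 reads (CPM) in WT and from 21.8 to 24.2 in P2ry14-null libraries, a log2 fold change of -3.19 ± 0.06 (SE, n = 5 each; edgeR adjusted p = 3.74e-12). Libraries held from 67.2 M to 185 M reads (M, 1000000 reads). The 7 eosinophil markers summed to between 8580 and 9240 CPM in every library. Siglecf and Ccr3, both among these markers, had WT means of 1282 ± 63.2 and 1369 ± 159 CPM (SD). The library of P2ry14-null replicate 2 stood apart, with 1620 CPM summed over 7 macrophage markers and 419 CPM over 6 class II and dendritic cell markers. The highest sums in WT were 554 and 141 CPM. P2ry14-null replicate 2 also had the highest neutrophil (311), B cell (28.2), T and NK cell (5.01) and epithelial and stromal (282 CPM) marker sums. The highest in WT were 292, 22.8, 2.95 and 253 CPM. Its platelet (97.8) and mast cell and basophil (38.2 CPM) sums were not the highest. Without that library the log2 fold changes of the 10 genes ran from -0.054 (Gna15) to 0.176 (Rgs1), and 0 passed in edgeR. Nothing in the labels says that each library came from its own mouse, so p-values measure only the spread between these libraries, which may be technical.

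Lung eosinophils carried transcripts of all 4 classes of alpha subunit, and Gnai2, the main inhibitory subunit of leukocytes, exceeded every other one. Levels of different genes were compared as reads per kb of exon per M reads, which divides CPM by the joined exon length in kb. On this per-length scale Gnai2 reached a median level of 478 over the 10 libraries (range 457 to 502). Gna15, a Gq-class subunit largely restricted to blood cells, followed at 84.5 (75.3 to 97.8), and Gnai3, the second inhibitory subunit, at 69.8 (65.1 to 86.8). The ubiquitous Gq-class subunit Gnaq stood at 30.1 (26.6 to 32.9) and Gna13 at 29.1 (26.6 to 34.9). Gna15 exceeded Gnai3 in 9 of 10 libraries and their ranges overlapped. Gnaq exceeded Gna13 in 5 of 10 libraries, so these levels did not differ beyond their spread. The second place of Gna15 depended on the length used. Divided by the longest transcript, Gnas of the Gs class had a mean of 90.6, against 85.8 for Gna15.

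Summed over the 16 alpha subunit genes by joined exons, Gnai2 made up 62.2% to 65.8% of all alpha subunit reads per kb. The 5 genes described here made up 93.6% to 94.0% on this scale. The Gi class as a whole took 74.1% ± 0.31 in WT and 74.3% ± 0.63 in P2ry14-null libraries (SD, n = 5 each). The Gq class took 16.3% ± 0.36 and 16.1% ± 0.50. The other inhibitory subunits named next were close to the limit of detection. Gnai1 gave 46 reads, Gnaz, a subunit of platelets and neurons, 52, and the taste subunit Gnat3 3 reads over all 10 libraries together. The share of Gnas, the stimulatory subunit, depended on the length used, 10376 bases for its joined exons and 3947 for its longest transcript. Gnas was at most 4.96% of the alpha subunit reads by joined exons and up to 11.8% by the longest transcript, where Gnai2 took 58.7% to 62.0%. The class shares moved as well, to 68.7% to 70.4% for Gi and 14.2% to 15.4% for Gq by the longest transcript. The share of the 5 genes was taken by joined exons only.

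Among the RGS genes, Rgs2, a brake with preference for Gq, was the highest, with a median per-length level of 386 (range 338 to 447). It was followed by Rgs1, a brake on Gi and Gq known for damping chemokine responses of lymphocytes, at 166 (140.4 to 199). Rgs19, a small RGS protein first found as a partner of the Gi alpha subunit of Gnai3, stood at 116 (105 to 125). Rgs18, known from platelets and their precursors, stood at 71.0 (60.2 to 87.8), and Rgs3 at 3.20 (2.87 to 3.47). Rgs2 exceeded Rgs1 in all 10 libraries, by 1.93 to 2.81 times. Rgs19 and Rgs18 were separated in all 10 libraries as well. By the longest transcript, however, Rgs1 (mean 169) exceeded Rgs19 (mean 165) in only 6 of 10 libraries. Of the other RGS genes, Rgs14, which also carries a motif that holds inactive Gi alpha, had a median per-length level of 123 (119.6 to 134), and Rgs10 one of 16.1 (13.7 to 18.4).

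**Figure D1:**
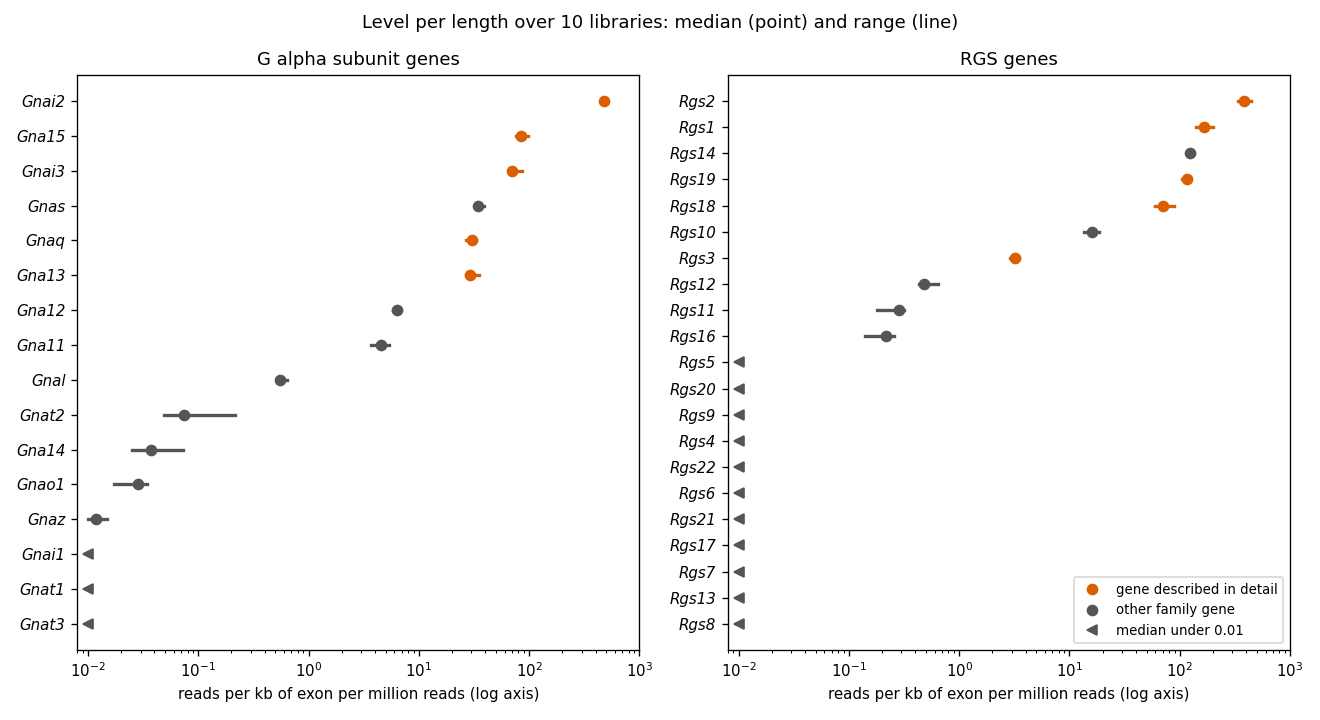
Level per length of 16 alpha subunit genes (left) and 21 RGS genes (right), as reads per kb of exon per M reads on a log axis. Points are medians and lines the range over 10 libraries; triangles mark a median under 0.01. Gnai2 (478) and Rgs2 (386) lead their families, and 11 RGS genes lie under the left edge.

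In order of mean per-length level over the 10 libraries, the 10 genes ran Gnai2, Rgs2, Rgs1, Rgs19, Gna15, Gnai3, Rgs18, Gnaq, Gna13 and Rgs3. Neighbours in this order held the same rank relative to each other in all 10 libraries except 3 pairs. These were Gna15 and Gnai3 (9 of 10), Gnai3 and Rgs18 (6 of 10; their medians, 69.8 and 71.0, stand in the opposite order) and Gnaq and Gna13 (5 of 10). Gnai2 exceeded Rgs2 by only 1.07 to 1.48 times, while Gna13 exceeded Rgs3 by 8.08 to 10.6 times by joined exons. By the longest transcript that gap was smaller, with mean levels of 30.9 for Gna13 and 5.27 for Rgs3.

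Rgs18, Rgs1 and Rgs2 lie together on chromosome 1, in a cluster of 5 RGS genes that spans 776 kb, all on the minus strand. Rgs2 is at 143999338 to 144004149 of mm10, Rgs1 at 144244669 to 144249104 and Rgs18 at 144752692 to 144775421. Between them lie Rgs13, known from mast cells and germinal centre B cells, and Rgs21. Rgs13 gave 3 reads in all 10 libraries together and Rgs21 gave 0, while Rgs1 gave 898387 and Rgs2 1704108. A count of 0 allows 3 reads, which is 0.0445 CPM in the shallowest and 0.0165 CPM in the deepest library, by counting error alone. Neighbouring genes of this cluster thus ranged from 0 reads to the second highest per-length level among the genes described.

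Promoter sequence was read from RefSeq on GRCm38.p6 for 7 of the 10 genes, that is, all but Gnai2, Rgs1 and Rgs18. Of these, 4 windows of 250 bases before the RefSeq start site are shown. They are those of the highest RGS gene with an entry (Rgs2), of an inhibitory subunit (Gnai3), and of both Gq-class subunits, Gnaq (ubiquitous) and Gna15 (blood cells). The gene as counted starts at 81524483 for Gna15, on the minus strand, so the Gna15 window lies inside the counted gene and not before it. Capitals mark matches on either strand to GGGCGG (the GC box), CCAAT and TGACG (the core of the cyclic AMP response element).
Rgs2, chr1:144004150-144004399, minus strand: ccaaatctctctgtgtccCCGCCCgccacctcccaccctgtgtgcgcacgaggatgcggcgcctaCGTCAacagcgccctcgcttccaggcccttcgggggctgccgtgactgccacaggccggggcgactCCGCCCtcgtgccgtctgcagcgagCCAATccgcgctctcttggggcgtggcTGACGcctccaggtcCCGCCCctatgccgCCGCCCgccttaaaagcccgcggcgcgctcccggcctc
Gnai3, chr3:108146153-108146402, minus strand: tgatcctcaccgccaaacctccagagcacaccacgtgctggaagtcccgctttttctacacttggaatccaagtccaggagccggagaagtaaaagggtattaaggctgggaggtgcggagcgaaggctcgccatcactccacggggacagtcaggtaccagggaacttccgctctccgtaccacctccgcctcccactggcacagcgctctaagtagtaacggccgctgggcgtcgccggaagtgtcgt
Gnaq, chr19:16132434-16132683, plus strand: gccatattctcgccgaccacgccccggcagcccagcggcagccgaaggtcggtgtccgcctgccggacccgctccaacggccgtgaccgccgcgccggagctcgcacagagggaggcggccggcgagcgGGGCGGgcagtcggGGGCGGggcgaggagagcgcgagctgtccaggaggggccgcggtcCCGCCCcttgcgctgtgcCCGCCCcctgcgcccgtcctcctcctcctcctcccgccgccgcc
Gna15, chr10:81524226-81524475, minus strand: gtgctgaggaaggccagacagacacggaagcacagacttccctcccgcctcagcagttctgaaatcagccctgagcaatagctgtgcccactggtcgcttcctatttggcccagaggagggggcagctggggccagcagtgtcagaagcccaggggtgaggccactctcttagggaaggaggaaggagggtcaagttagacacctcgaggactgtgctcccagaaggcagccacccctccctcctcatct

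The window of Rgs2 held 4 GC boxes, 1 CCAAT and 2 TGACG matches, and that of Gnaq 4 GC boxes. Among all 32851 windows of the same length, 32.7% held a GC box, 33.8% CCAAT and 17.8% TGACG, and 3.90% held 2 or more TGACG matches. The windows of the Gq-class pair differed in base composition, though that of Gna15 lies inside the gene as counted. Gnaq had 37 CpG pairs and 79.2% GC in its window, and Gna15 had 4 CpG pairs and 60.4% GC, against a median of 6 CpG pairs over all windows. Gnai3 had 18 CpG pairs and no match to the 3 motifs. A match is a description of the letters, and its use in eosinophils was not measured.

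The inhibitory subunits did not differ between genotypes past the threshold. Gnai2 (gene ID 14678; chromosome 9, 107614125 to 107635391, minus strand) had 1155, 1096, 1064, 1111 and 1112 CPM in WT replicates 1 to 5. It had 1155, 1091, 1103, 1079 and 1052 CPM in P2ry14-null replicates 1 to 5. The groups overlapped almost fully, and the coefficient of variation within a group was 2.97% and 3.47%, the second and the third smallest of the 20 such values for the 10 genes. The log2 fold change of Gnai2 was -0.02 ± 0.04 (SE; edgeR adjusted p = 0.999), with a 95% interval from -0.11 to 0.08. Gnai3 (gene ID 14679; chromosome 3, 108107275 to 108146152, minus strand) had 249, 216, 283, 212 and 231 CPM in WT, against 231, 221, 224, 246 and 221 CPM for P2ry14-null replicates 1 to 5. WT replicates 3 and 1 stood above all 5 P2ry14-null libraries, and WT replicates 2 and 4 below all 5. Its log2 fold change was -0.06 ± 0.07 (edgeR adjusted p = 0.999), and without WT replicate 3 it was 0.01.

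The Gq-class subunits were likewise close between the groups. Gnaq (gene ID 14682; chromosome 19, 16132831 to 16387453, plus strand) had 149.8, 163, 186, 163 and 174 CPM in WT replicates 1 to 5. P2ry14-null replicates 1 to 5 had 169, 162, 171, 172 and 174 CPM of Gnaq, all inside the WT range. Its log2 fold change was 0.02 ± 0.06 (edgeR adjusted p = 0.999). Gna15 (gene ID 14676; chromosome 10, 81502313 to 81524483, minus strand) had 192, 168, 162, 163 and 175 CPM in WT. The P2ry14-null values of Gna15 were 172, 160.1, 179.9, 163 and 148 CPM. WT replicate 1 was the highest and P2ry14-null replicate 5 the lowest, and the other 8 libraries were interleaved. The log2 fold change of Gna15 was -0.06 ± 0.06 (edgeR adjusted p = 0.999).

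Gna13 couples receptors to RhoA, which acts on the actin cytoskeleton. Gna13 (gene ID 14674; chromosome 11, 109362783 to 109401369, plus strand) had 182, 187, 224, 185 and 187 CPM in WT replicates 1 to 5, against 171, 179, 198, 199 and 193 CPM without the receptor. WT replicate 3 was high and the other 4 WT libraries lay within the P2ry14-null range. The log2 fold change was -0.04 ± 0.07 (edgeR adjusted p = 0.999), and 0.021 without WT replicate 3. In GENCODE, 151 exon bases of Gna13 are shared with Gm11696 on the opposite strand. The strand setting of the counting is not given in the sources used here, so reads over those bases cannot be told apart. Gm11696 itself was counted at 6.91 CPM in WT and 6.46 in P2ry14-null.

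Rgs1 had the largest estimated difference of the 10 genes, and it did not pass the threshold. Rgs1 (gene ID 50778) had 675, 539, 672, 587 and 618 CPM in WT replicates 1 to 5. P2ry14-null replicates 1 to 5 had 638, 628, 764, 638 and 752 CPM. P2ry14-null replicates 3 and 5 exceeded all WT libraries, WT replicates 2, 4 and 5 lay below all P2ry14-null libraries, and WT replicates 1 and 3 lay between, so the groups overlapped. The log2 fold change of Rgs1 was 0.15 ± 0.08 (SE; edgeR adjusted p = 0.999; unadjusted 0.0867), with a 95% interval from -1.66% to 24.5% as a change from WT. The log2 fold change ranged from 0.102 to 0.179 with single libraries left out, and was 0.176 without P2ry14-null replicate 2. With the replicate number as a block, Rgs1 had an unadjusted edgeR p of 0.0417 and an adjusted p of 1.0.

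Rgs2 (gene ID 19735) had 1100.3, 1284, 1299.5, 1133 and 1282 CPM in WT replicates 1 to 5, against 1239.9, 1111, 1454, 1256 and 1257 CPM without the receptor. The highest and the next to lowest libraries were both P2ry14-null, replicates 3 and 2, and the groups overlapped. Its log2 fold change was 0.05 ± 0.07 (edgeR adjusted p = 0.999). Rgs18 (gene ID 64214) had 146, 122, 178, 133 and 128 CPM in WT, against 142, 129, 154, 148 and 151 CPM without the receptor. Its WT libraries spread more widely than any other group of the 10 genes, with a coefficient of variation of 15.8% against 6.87% in P2ry14-null. The log2 fold change of Rgs18 was 0.03 ± 0.09 (edgeR adjusted p = 0.999), and 0.132 without WT replicate 3, the highest library (edgeR adjusted p = 0.583).

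Rgs19 (gene ID 56470; chromosome 2, 181688419 to 181693977, minus strand) had 265, 247, 248, 225 and 267 CPM in WT replicates 1 to 5. It had 263, 249.5, 246, 245 and 233 CPM in P2ry14-null, all inside the WT range, with a log2 fold change of -0.02 ± 0.05 (edgeR adjusted p = 0.999). Rgs3 (gene ID 50780; chromosome 4, 62559835 to 62703019, plus strand) was the lowest of the 10, at 24.4, 23.7, 25.7, 22.5 and 25.7 CPM in WT, against 25.8, 23.2, 26.3, 27.2 and 23.1 CPM without the receptor. Its log2 fold change was 0.04 ± 0.06 (edgeR adjusted p = 0.999). A stretch of 1410 bases of Rgs3 transcript aligned at 99.8% identity to Gm5763, so its level is uncertain if reads that match both places were dropped or split.

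**Figure D2:**
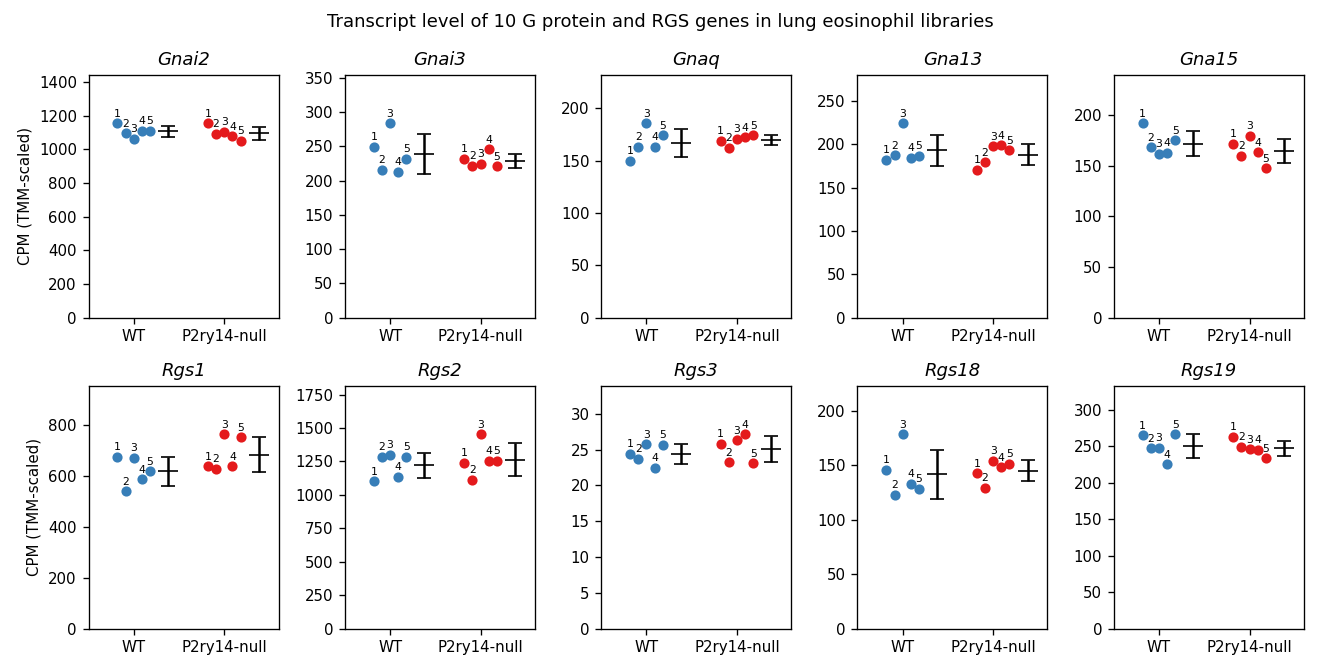
CPM of each gene (vertical axes from 0) in 5 WT and 5 P2ry14-null libraries. Points are libraries labelled by replicate number, and bars to their right are mean ± SD. The groups overlap for all 10 genes. WT replicate 3 is the highest WT library for Gnai3 (283), Gnaq (186), Gna13 (224) and Rgs18 (178). It is also the highest, by a small margin, for Rgs2 (1299.5, with replicate 2 at 1283.7) and Rgs3 (25.74, with replicate 5 at 25.67).

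Counted together, 0 of the 10 genes passed the threshold in edgeR (adjusted p under 0.05), where 0.0385% of all tested genes did. At an unadjusted p under 0.05 the count was also 0 of 10, against 4.13% of all tested genes, and DESeq2 called 0 of 10, against 0.116% of its genes. The groups did not separate for any of the 10, and separated for 0.648% of all tested genes. Of the 10 genes, 5 had a log2 fold change above 0 and 5 below. Their median absolute log2 fold change was 0.040, against 0.063 over all tested genes and 0.038 over the 6139 tested genes with a mean of 20 CPM or more. The 95% intervals of the 10 genes, each taken alone, reached no further than -14.1% (Gnai3) and 24.5% (Rgs1) as a change from WT. For Gnai2 the interval ran from -7.49% to 5.81%. In sorted bulk RNA, a change in how many cells carry a transcript and a change in its amount per cell cannot be told apart.

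**Figure D3:**
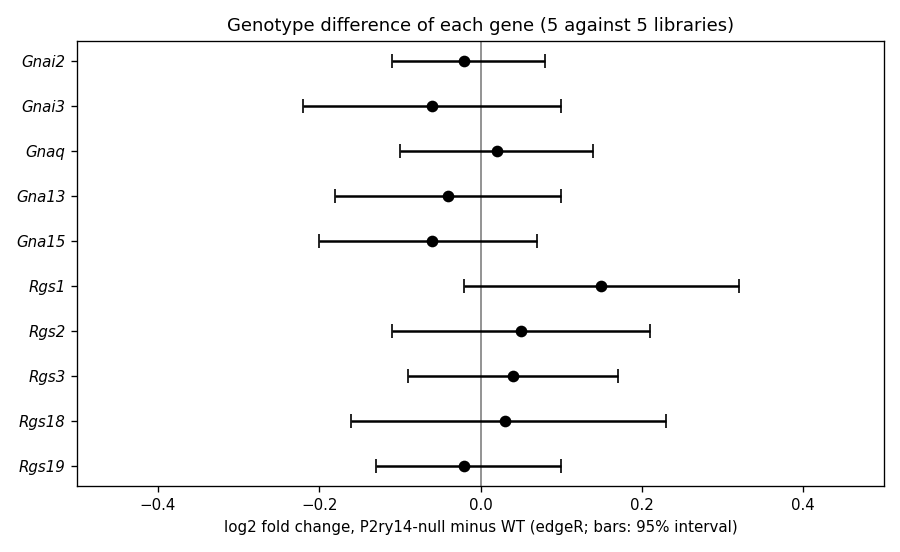
Log2 fold change (P2ry14-null minus WT, horizontal axis) of each gene from edgeR with its 95% interval, n = 5 libraries a group. The intervals of all 10 genes include 0; that of Rgs1 (-0.02 to 0.32) lies farthest to the right.

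Other genes of the same pathway were taken from lists of subunits, brakes, receptor kinases, arrestins and effectors. Of 99 such genes in the table, 75 were tested and 0 passed in edgeR in either direction, where 0.0385% of all tested genes did. At an unadjusted p under 0.05 there were 2 of the 75, against 4.13% of all tested genes. The median log2 fold change of the 75 was 0.01, with 41 above 0 and 34 below. Over all tested genes the median was 0.00, with 7975 above 0 and 7611 below. DESeq2 called 0 of the 75, against 0.116% of its genes. The 2 genes at an unadjusted p under 0.05 in edgeR were Adcy6, an adenylyl cyclase, and Plcb3, a phospholipase C beta. The level of Adcy6 was 0.140 ± 0.024 CPM for WT and 0.225 ± 0.108 CPM for P2ry14-null (SD, n = 5 each), a log2 fold change of 0.70 ± 0.29 (SE; edgeR adjusted p = 0.999). Its highest value, 0.415 CPM, was in P2ry14-null replicate 2, the library with the high macrophage markers, whose part in this value was not tested. Plcb3 had 124.6 ± 9.74 and 136.8 ± 3.87 CPM, a log2 fold change of 0.13 ± 0.05 (edgeR adjusted p = 0.999).

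By group, 0 of 7 tested alpha subunit genes outside the 10 passed, with Gnas at -0.05 and Gna12 at 0.09 on the log2 scale. Of 12 tested beta and gamma subunit genes 0 passed, 8 of them below 0 (Gnb2 -0.06, Gnb4 -0.11, Gnb5 0.19). Of 5 other tested RGS genes 0 passed and 4 lay below 0. Among these, Rgs10, a small brake on Gi, stood at 19.5 ± 1.16 CPM in WT and 17.7 ± 1.35 in P2ry14-null (log2 fold change -0.14 ± 0.06; edgeR adjusted p = 0.999). Rgs14 was at -0.06 ± 0.05 and Rgs16 at -0.22 ± 0.16. The median of the 5 was -0.06, and ran from -0.156 (without WT replicate 3) and -0.093 (without P2ry14-null replicate 5) to -0.039 (without WT replicate 2). The remaining 11 RGS genes of the list were too low to test.

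Kinases and arrestins end signalling at the receptor itself. Of 8 such genes 0 passed, and Grk2, the kinase that marks active receptors for arrestin, had 1257 ± 41.2 CPM in WT against 1239.9 ± 43.8 CPM (log2 fold change -0.02 ± 0.05). Grk1, at a low level of 0.255 CPM in WT, was at 0.35 ± 0.22. Arrb2, an arrestin with 430 CPM in WT, was at -0.07 ± 0.05. Of 9 tested modulators and chaperones of alpha subunits 0 passed (Gpsm3 -0.05, Cct2 -0.08, Pcp2 0.30). Pcp2 was also low, at 0.142 CPM in WT, and its SE was 0.21. Of 15 tested cyclases, kinases and phosphodiesterases of the cyclic AMP pathway 0 passed, 11 lying above 0 (Pde4b -0.07, Pde7a -0.10). Of 13 effectors of beta-gamma and Gq 0 passed, 10 lying above 0 (Plcb2 0.01, Prkcb 0.09). Of 6 effectors of G13 0 passed (Arhgef1 -0.03, Arhgef12 0.33, Rock2 0.11). The median of these 6 was 0.071, and ran from 0.015 (without WT replicate 1) and 0.033 (without WT replicate 2) to 0.137 (without WT replicate 3).

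Some of these genes are also known from other blood cells, so markers of those cells are given beside them; their part in the levels was not tested. Of 6 platelet and megakaryocyte markers, 5 lay under 1 CPM; the chemokine genes Pf4 and Ppbp, which define platelets, had means of 0.173 and 0.00999 CPM in WT and 0.277 and 0.0164 in P2ry14-null. The sixth, Itga2b, had 106 CPM in WT. Rgs18 stood at 141 CPM in the same WT libraries. The 5 B cell markers summed to between 12.5 and 28.2 CPM over the 10 libraries, with Cd79a the highest at 7.47 CPM in WT. None of the marker lists held a gene at 0 reads in all libraries. Neutrophil markers summed to 231 to 292 CPM in WT and 238 to 311 in P2ry14-null. Levels within this list differed widely. Cxcr2, a chemokine receptor, had 133 CPM in WT. S100a8 ranged from 0.754 to 1.234 CPM over the 5 WT libraries and from 0.951 to 4.65 CPM over the 5 P2ry14-null libraries, so the groups overlapped. Its highest value was in P2ry14-null replicate 2, the library with the high macrophage markers. Macrophage markers summed to 336 to 554 CPM in WT and reached 1620 CPM in P2ry14-null replicate 2.

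The 10 genes also varied between libraries of 1 genotype. As log2 CPM minus the mean of the own genotype, WT replicate 3 stood at 0.35 for Rgs18, 0.26 for Gnai3, 0.22 for Gna13 and 0.15 for Gnaq. It stood at -0.06 for Gnai2 and -0.09 for Gna15. The genes high in this library were among those of low GC content, and those low in it among those of high GC content. Rgs18 has 33.4% GC and Gnai3 41.7%, while Gnai2 has 56.7% and Gna15 58.7%. Rgs3, with 54.3% GC, stood at 0.08 in WT replicate 3. Across the 10 genes, which are not independent replicates, the rank correlation of this deviation with GC was -0.85 in WT replicate 3. It was -0.84 in P2ry14-null replicate 5 and 0.73 in P2ry14-null replicate 1.

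The same trend was present over the whole table in WT replicate 3. Across 8578 genes with a mean of 5 CPM or more, the rank correlation with GC was -0.63 in WT replicate 3, 0.52 in WT replicate 2 and -0.43 in P2ry14-null replicate 4. In P2ry14-null replicates 5 and 1 it was only -0.08 and 0.16. With exon length it was 0.52 in WT replicate 3 and -0.66 in WT replicate 1. The part of GC content and length in the levels of single genes was not tested. Without WT replicate 3 the log2 fold change was 0.062 for Gnaq, 0.178 for Rgs1, 0.075 for Rgs2 and 0.062 for Rgs3. It was -0.030 for Gnai2, -0.086 for Gna15 and -0.022 for Rgs19, and the values of Gnai3, Gna13 and Rgs18 stand with these genes above.

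**Figure D4:**
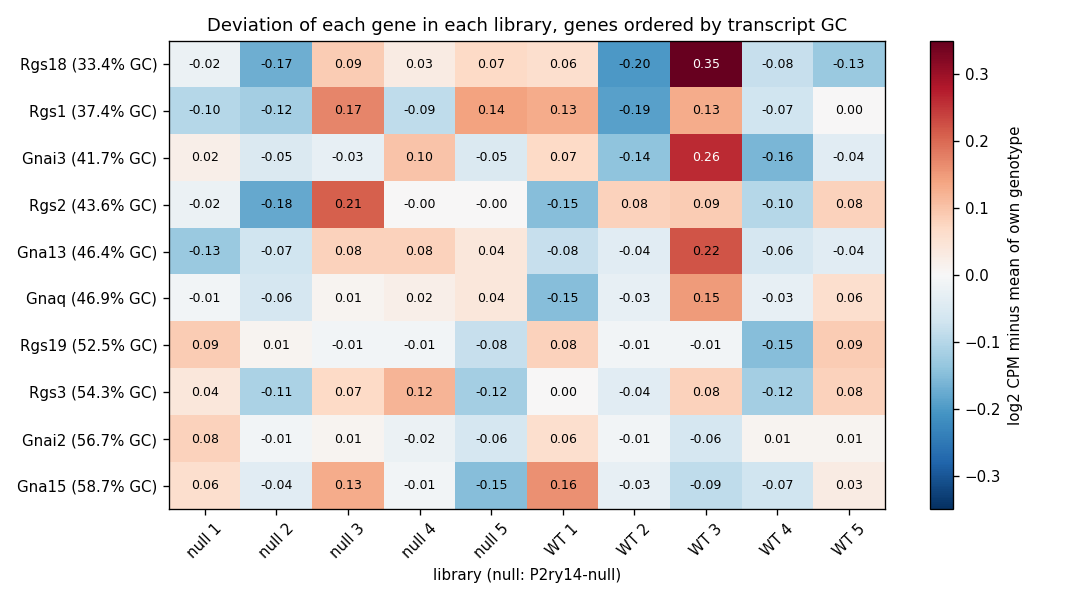
Log2 CPM of each gene minus the mean of its own genotype in each of the 10 libraries (columns), with genes (rows) ordered by transcript GC content. Red is above and blue below the group mean; WT replicate 3 runs from 0.35 (Rgs18) to -0.09 (Gna15).

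With group means removed, the genes were also related to each other over the 10 libraries, as 45 pairs. None of the 45 passed after Benjamini-Hochberg adjustment. Gnai2 and Gna15 moved in the same direction (Pearson's r = 0.79, permutation p = 0.00696, adjusted p = 0.108; Spearman's rho = 0.84, permutation p = 0.00338, adjusted p = 0.111). Without the 2 libraries farthest from the median of Gnai2, r was 0.73. Gnai2 and Gna13 moved in opposite directions, with r = -0.76 (permutation p = 0.012, adjusted p = 0.108) and rho = -0.71 (permutation p = 0.027, adjusted p = 0.152). For that pair r was -0.64 without the same 2 libraries. Gnai3 and Rgs18 had r = 0.82 (permutation p = 0.00545, adjusted p = 0.108) and rho = 0.60 (permutation p = 0.0732, adjusted p = 0.329), and r was 0.56 without P2ry14-null replicate 4 and WT replicate 3. The cluster neighbours Rgs1 and Rgs18 had r = 0.73 (permutation p = 0.0113, adjusted p = 0.108) and rho = 0.82 (permutation p = 0.0058, adjusted p = 0.111), and r was 0.75 without P2ry14-null replicates 3 and 5. Rgs1 and Rgs2 had r = 0.31 (permutation p = 0.383, adjusted p = 0.59) and rho = 0.36 (permutation p = 0.314, adjusted p = 0.56).

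The genes whose pattern over the 10 libraries was most like each of these were sought among 8477 others with a mean of 5 CPM or more, by Pearson's r with group means removed. This is a description, since libraries share depth and base composition. The best matches were Os9 (r = 0.97) for Gnai2, Rp2 (0.98) for Gnai3, Dmtf1 (0.99) for Gnaq, Dcp2 (0.98) for Gna13 and Tpst2 (0.95) for Gna15. For the RGS genes they were Arrdc3 (0.93) for Rgs2, Ccnl2 (0.95) for Rgs3, Cul3 (0.99) for Rgs18 and Eloa (0.95) for Rgs19. Rgs1 had the weakest best match, Herc6 at 0.87, followed by Ifih1 at 0.87.

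Rgs1 and Rgs2 are known as genes induced within a short time of stimulation, and handling of cells can induce such genes. The 10 genes were therefore set beside the mean log2 CPM of 25 immediate early and heat shock genes, as 10 relations with group means removed. The 25 genes were not scaled, so those that vary most weigh most in this mean. The coefficient of variation was 36.5% in WT and 75.6% in P2ry14-null for Hspa1b, against 6.91% and 8.46% for Dusp1. The relations therefore cannot tell the immediate early genes from the heat shock genes. Rgs1 had r = 0.18 (permutation p = 0.618) and rho = 0.15 (permutation p = 0.682), and Rgs2 had r = 0.19 (permutation p = 0.604) and rho = 0.03 (permutation p = 0.947). Without P2ry14-null replicate 3 and WT replicate 4, r was -0.06 for Rgs1 and -0.18 for Rgs2. Over all 10 genes r ran from -0.35 (Rgs19) to 0.38 (Gna15), with adjusted p from 0.866 to 0.893, and none passed. The r of Rgs1 and Rgs2 exceeded that of 70.7% and 71.5% of all tested genes. Of the 25 immediate early and heat shock genes, 21 had a log2 fold change below 0, as did 7611 of all 15586 tested genes. In edgeR 0 of the 25 passed (0.0385% of all tested genes) and 7 had an unadjusted p under 0.05 (4.13% of all). The groups did not overlap for 2 of the 25 (0.648% of all), and DESeq2 called 1, Dnajb1 (0.116% of all). Rgs1 and Rgs2 both had estimates above 0.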

How the data were processed

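The deposited table holds unnormalised counts of reads for each gene in 10 libraries. The submitters' processing notes name STAR 2.5, featureCounts 1.5.0-p1 (Subread), DESeq2 and the build mm10. The sources used here give no strand setting, annotation or treatment of reads matching several places. The counts were tested with edgeR 4.0.16 in R 4.3.3 (TMM factors, default low count filter, genotype alone, quasi-likelihood test), with Benjamini-Hochberg adjustment over 15586 genes and a threshold of 0.05. The procedure was tested on simulated data of 15586 genes, with 50 genes changed at each size. It recovered 26.0% of the changes of 1.25-fold, 52.0% of 1.5-fold, 84.0% of 2-fold and 96.0% of 4-fold. The changed genes were drawn from all levels, and changes of all sizes were tested and adjusted together. The median SE was 0.064 for the 10 genes and 0.089 over all tested genes. These shares are therefore not the power for the 10 genes. CPM uses TMM-scaled library sizes. The SE was taken from the log2 fold change and the F statistic, and the 95% intervals use the t quantile of the fit. Exon lengths and GC (longest transcript) are from GENCODE vM21 on GRCm38, which held 83.7% of tested genes by identifier. Copies were sought with blastn (100 bases or more, 90% identity or more). Permutation tests were two-sided with 100000 resamples. No pair of libraries within a group agreed within sampling noise (chi-square of at least 24.2 per gene). DESeq2 1.42.0, other scaling factors, no filter, the replicate block and leaving out each library were alternatives.

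Named genes were P2ry14 and the 10 members, and in each pathway list the gene with the highest mean and up to 2 with the smallest p, besides any past the threshold; in marker lists the highest gene; for likeness, up to 2 genes each. Adcy6 and Plcb3 fell under this rule. Gnai1, Gnaz, Gnat3, Rgs13, Rgs21, Siglecf, Ccr3, Pf4, Ppbp, S100a8, Gm11696 and Gm5763 were picked once their values were known. So were Dnajb1, Hspa1a, Hspa1b, Hspa8, Hsp90aa1, Egr1, Egr3, Fos, Dusp1 and the genes of the last section. The members and lists were chosen with earlier results of these data known.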

Additional observations from a re-analysis of the deposited data

Results flagged for a closer look

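Gna13 in WT replicate 3 was far from the other WT libraries, at 224 CPM against 187 CPM in the next library. This gap was 0.869 of the whole range of the 5 WT libraries, where Dixon's 95% critical value for 5 samples is 0.71. It was the 1 such value among 20 groups of 5 libraries (10 genes in each genotype), and chance flags about 1 in 20. WT replicate 3 was also the library with the strongest rank correlation with GC over all genes (-0.63), and the part of that trend in this value was not tested.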

How the results depend on the processing

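The count of all genes called was 6, and 19 in DESeq2, and from 3 to 5 with single libraries left out. None of the 10 genes passed in any of the 15 alternatives (smallest adjusted p 0.567). With the replicate number as a block, which did not pair the libraries (correlations of same-numbered libraries from -0.093 to 0.094), edgeR called 6 genes and 0 of the 10; Rgs1 alone had an unadjusted p under 0.05. Of 150 log2 fold changes of the 10 genes under alternatives, 143 kept their sign. The 7 that did not were all from single libraries left out and at most 0.021 in size: ranges were -0.093 to 0.010 for Gnai3, -0.016 to 0.062 for Gnaq, -0.060 to 0.021 for Gna13, -0.013 to 0.132 for Rgs18 and -0.048 to 0.005 for Rgs19. The cause was not tested. Without 2 libraries, the correlation with immediate early genes changed sign for Gnai2 (-0.03), Gnai3 (0.18), Rgs1 (-0.06) and Rgs2 (-0.18). By the longest transcript, chosen after seeing the data, per-length levels were 497 for Gnai2, 165 for Rgs19 and 5.27 for Rgs3. Depth did not limit the 10 genes, the lowest of which had 33840 reads in all; it limits genes under 0.0445 CPM.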

Other observations

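Transcripts of the partners of the alpha subunits were also present. On the per-length scale, beta subunit transcripts were Gnb2 (median 207 over 10 libraries, range 195 to 231) and Gnb1 (98.3, 93.1 to 106), and Gnb4, Gnb5 and Gnb3 were all under 1. Among gamma subunits, Gng5 (23.8), Gng2 (22.9), Gng10 (18.6) and Gng12 (15.9) lay close together. Of the receptor kinases, Grk2 (366) and Grk6 (126) led, and of the arrestins Arrb2 (217) exceeded Arrb1 (57.4).

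Levels of effector genes ranged widely. Arhgef1, the exchange factor through which G13 activates RhoA, had a median per-length level of 409, and its relatives Arhgef11 and Arhgef12 12.5 and 0.0899. Plcb2, the phospholipase C beta of blood cells, stood at 190.3 and Plcb3 at 31.3, while the protein kinase C gene Prkcd reached 286. Adcy7 (58.9) was the highest of 9 adenylyl cyclases, followed by Adcy9 (5.37), and the phosphodiesterase gene Pde4b stood at 103. Among catalytic subunits of protein kinase A, Prkaca (21.5) and Prkacb (15.5) were closer together. These levels describe challenged lung eosinophils of both genotypes together, and no other tissue or state was measured for comparison.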
